A study of Mus musculus with 16 samples.

Results

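Histone cluster genes are the genes that carry the symbols Hist1h to Hist4h in the mouse, and 69 of the 24981 genes in the deposited expression table bear such a symbol. The members were chosen by symbol alone: 6 belong to H1, 19 to H2A, 19 to H2B, 12 to H3 and 13 to H4, and 2 of them, Hist1h2al (H2A) and Hist3h2bb-ps (H2B), are annotated as processed pseudogenes. No measured value entered that rule, but the family, and Hist1h1c as its marker, were selected on earlier results of the same RPKM values. Calls on the members are therefore a description, not independent evidence, and Hist1h1c is given without p-values. The RNA came from flow-sorted macrophages of C57BL/6 mice, 8 weeks old, at baseline. The libraries came from macrophages washed out of the pericardial cavity (4), the pleural cavity (4) and the peritoneal cavity (4), and from macrophages of the heart (4), numbered 2 to 5 in each group. The labels name no transgene and no genetic alteration, and do not say whether a library held 1 mouse or a pool or whether equal numbers share a mouse, so the p-values measure the spread between these libraries.

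Core histones H2A, H2B, H3 and H4 form the protein spool around which DNA is wound, and linker histone H1 binds where the DNA enters and leaves it. The cluster genes are known as the replication-dependent histone genes: dividing cells transcribe them mainly in S phase, when new DNA has to be packaged, and most of their mRNAs end in a conserved stem-loop rather than a poly(A) tail. The stem-loop is bound by Slbp, the stem-loop binding protein. In cells that have stopped dividing, several cluster genes are known to give polyadenylated mRNAs instead, and variant histones from genes outside the clusters (H3f3a, H3f3b, H2afz, H1f0) replace the replication-dependent ones. Macrophages resident in tissues divide rarely.

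The stem-loop is shown because it is the part that sets these mRNAs apart, and because most of the members described below carry it. It was found in the GENCODE M21 transcripts (build GRCm38) of 45 of the 69 genes, and in 17 of the 21 genes that were tested below. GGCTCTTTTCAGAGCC was the commonest form, in 25 genes of types H1, H2A, H2B and H3, and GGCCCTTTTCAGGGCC was found in 7 H4 genes. The 16 bases of the stem-loop are in capitals, with up to 5 transcript bases on each side, and the set runs over an H1 gene, 3 H2A genes, an H2B gene and 2 H4 genes.
Hist1h1c: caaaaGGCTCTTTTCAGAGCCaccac
Hist3h2a: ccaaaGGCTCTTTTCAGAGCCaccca
Hist1h2ao: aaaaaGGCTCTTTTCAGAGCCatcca
Hist1h2ap: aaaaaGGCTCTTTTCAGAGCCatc
Hist3h2ba: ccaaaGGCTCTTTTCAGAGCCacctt
Hist1h4i: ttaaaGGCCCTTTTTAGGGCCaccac
Hist2h4: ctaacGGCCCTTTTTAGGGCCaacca
Hist3h2a, which was lower in cavity macrophages, and Hist1h2ao and Hist1h2ap, which were higher in most comparisons before rescaling, thus carry the same 16 bases. The transcripts differ more in what follows the stem-loop. The M21 transcript runs on for 840 bases after it in Hist1h1c, 1643 in Hist3h2a, 1257 in Hist2h4, 330 in Hist1h4i and 169 in Hist3h2ba, but for 31 in Hist1h2ao and 3 in Hist1h2ap. No such stem-loop was found in the M21 transcripts of Hist1h2bc, Hist2h2be, Hist1h2af and Hist1h2ai, which were also tested. Only the longest M21 transcript of each gene was searched. That of Hist1h2bc has 2 exons, and those of Hist1h2af and Hist1h2ai are 399 and 393 bases long. A stem-loop in another transcript or beyond the annotated end would be missed.

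The genes lie on 4 chromosomes in GRCm38, the build (mm10) to which the reads were mapped. Chromosome 13 holds 55 Hist1 genes, chromosome 3 holds 10 Hist2 genes, chromosome 11 holds 3 Hist3 genes and chromosome 6 holds Hist4h4. Hist1h1c is a single exon at chr13:23738808-23740367 on the plus strand, Hist3h2a a single exon at chr11:58954685-58956830 on the plus strand, and Hist1h2ao a single exon at chr13:21810465-21810944 on the plus strand. In all, 64 of the 69 M21 transcripts have 1 exon. Opposite-strand neighbours whose starts lie within 1 kb make up 14 pairs, most of them an H2A gene and an H2B gene, such as Hist1h2ae and Hist1h2bg with 175 bases between them.

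Promoters of 250 bases before and 50 after the start are given for 3 genes that moved in different ways, Hist1h1c and Hist3h2a (lower in cavity macrophages) and Hist1h2ao (higher in pericardial and pleural macrophages), from RefSeq on GRCm38.p6. Capitals mark the box CCAAT, the core element TATAAA, the histone octamer motif ATTTGCAT and the H1 promoter box AAACACA, each searched on both strands. On the reverse strand the box CCAAT reads ATTGG, and the octamer motif then reads ATGCAAAT. None of the 4 motifs contains another.
Hist1h1c, chr13:23738557-23738856, plus strand: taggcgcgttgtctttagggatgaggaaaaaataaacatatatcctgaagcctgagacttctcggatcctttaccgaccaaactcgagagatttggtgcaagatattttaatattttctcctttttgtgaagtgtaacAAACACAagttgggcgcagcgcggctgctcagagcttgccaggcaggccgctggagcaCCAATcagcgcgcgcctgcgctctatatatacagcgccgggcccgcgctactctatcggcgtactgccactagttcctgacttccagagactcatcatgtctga
Hist3h2a, chr11:58954435-58954734, plus strand: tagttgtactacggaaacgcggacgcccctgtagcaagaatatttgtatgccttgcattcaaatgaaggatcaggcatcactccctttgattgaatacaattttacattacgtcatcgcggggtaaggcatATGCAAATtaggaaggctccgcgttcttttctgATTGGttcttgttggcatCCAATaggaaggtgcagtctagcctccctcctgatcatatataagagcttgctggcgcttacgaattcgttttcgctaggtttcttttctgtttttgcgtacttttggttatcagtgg
Hist1h2ao, chr13:21810117-21810416, plus strand: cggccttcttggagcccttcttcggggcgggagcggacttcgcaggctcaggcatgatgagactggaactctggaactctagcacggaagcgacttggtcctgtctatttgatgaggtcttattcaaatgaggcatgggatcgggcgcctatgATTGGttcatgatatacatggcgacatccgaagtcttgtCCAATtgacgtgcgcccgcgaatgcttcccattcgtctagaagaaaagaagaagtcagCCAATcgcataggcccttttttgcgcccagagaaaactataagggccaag
RefSeq promoters were found for 62 of the 69 genes, 63 promoters in all. CCAAT was in 85.7% of them, against 37.4% of all 32851 promoters in the table, and in every H1, H2A, H2B and H3 promoter but in 25.0% of the H4 promoters. TATAAA was in 55.6%, against 13.6% of all promoters. ATTTGCAT was in 38.9% of H2A and 41.2% of H2B promoters, against 1.74% of all, and AAACACA was in 5 of 6 H1 promoters, against 2360 of all 32851. All 3 promoters shown hold CCAAT, so that motif is common to Hist1h2ao and to the 2 genes that were lower in the cavities.

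Expression was given by the authors as RPKM, reads scaled to transcript length and library size, which allows levels of different genes to be compared per length. The cavity libraries held 40886702 to 61340862 alignments and the heart libraries 57029340 to 70166356. If alignments were the read total, 1 read on a transcript of 500 bases was worth 0.0285 to 0.0489 RPKM. The 2 cavity macrophage markers Gata6 and Icam2 summed to 305 to 653 RPKM in the 12 cavity libraries and to 3.99 to 7.59 RPKM in heart libraries, and all 7 general macrophage markers were detected in both. Heart libraries also held other RNA: 10 cardiomyocyte markers summed to 275 to 591 RPKM, against 2.69 to 4.68 RPKM in cavity libraries, and 8 fibroblast markers to 60.7 to 284 RPKM, against 0.204 to 0.915 RPKM. Of the cardiomyocyte markers, 5 were listed at 0 in 2 to 8 of the 12 cavity libraries, Tnni3 reached 2.27 RPKM there, and 8 of the 9 tested were lower in each cavity population. Ryr2 went the other way, at up to 2.37 RPKM in cavity libraries and 0.251 to 0.719 RPKM in heart libraries. In such bulk samples, fewer cells of a type and less RNA per cell cannot be told apart. The sum of all RPKM values also differed, from 334803 to 482872 in pericardial, 366880 to 423288 in pleural, 272981 to 433448 in peritoneal and 227397 to 336952 in heart libraries, so that the scaling of the libraries moves every fold against heart.

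Histone cluster RNA was a small part of each library as sequenced, and it was carried by few genes. Whether poly(A) RNA was selected is not given. It thus cannot be told whether histone mRNA without a poly(A) tail was counted, here or in any level below. The 69 genes together came to 131 ± 14.2 RPKM in pericardial cells, 118 ± 7.5 in pleural cells, 101 ± 23.7 in peritoneal cells and 176 ± 51.2 in heart macrophages (SD, n = 4 each). That was 0.0283% to 0.0333% of all RPKM in the pericardial libraries, 0.0279% to 0.0331% in the pleural, 0.0251% to 0.0303% in the peritoneal and 0.0525% to 0.075% in the heart libraries. The shares in heart libraries lay above those in every cavity library. The summed RPKM did not overlap either, but the gap was narrow: 3 heart libraries lay at 146 to 155 RPKM and heart library 5 at 253, against 142 in the highest cavity library, pericardial library 2. Heart library 5 was the highest heart library for 16 of the 21 tested members.

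The 8 genes that reached 1 RPKM in all 16 libraries were H1 gene Hist1h1c, H2A genes Hist1h2ap, Hist1h2ao, Hist3h2a and Hist2h2aa1, H2B genes Hist1h2bc and Hist2h2be, and H4 gene Hist1h4i. They made up 82.0% to 84.1% of histone cluster RPKM in pericardial, 84.1% to 86.8% in pleural, 81.9% to 87.6% in peritoneal and 68.9% to 75.3% in heart libraries. By mean RPKM over the 16 libraries Hist1h2ap stood first at 19.8, followed by Hist1h2bc at 17.9, Hist3h2a at 17.4, Hist1h2ao at 15.3, Hist1h1c at 12.6, Hist2h2aa1 at 9.66, Hist1h4i at 8.40 and Hist2h2be at 4.15. These means take 12 of 16 libraries from the cavities, and the order was another in heart macrophages, where Hist3h2a (28 RPKM), Hist1h1c (24.4), Hist1h2bc (23.2) and Hist2h2aa1 (15.7) stood above Hist1h2ap (13.2). Hist1h2ap, Hist1h2bc and Hist3h2a differ by less than the spread over libraries. The number of members at 1 RPKM or more also differed: 11 to 18 reached it in pericardial, 13 to 14 in pleural, 9 to 12 in peritoneal and 19 to 33 in heart libraries.

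**Figure D1:**
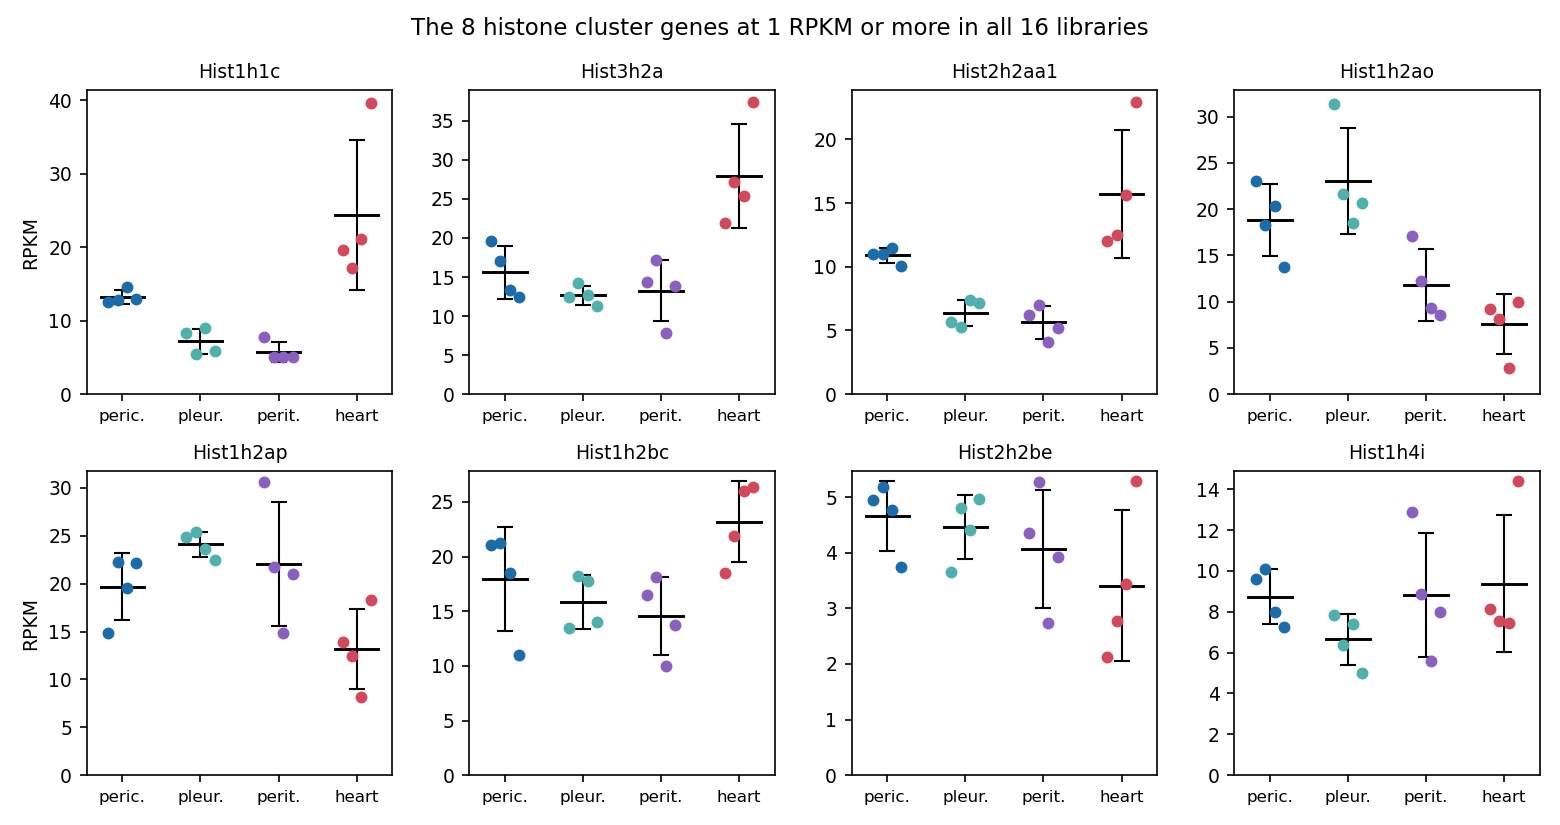
RPKM (vertical axes, from 0) of the 8 members at 1 RPKM or more in every library, in pericardial, pleural, peritoneal and heart macrophages. Points are libraries, horizontal lines the mean and whiskers the SD (n = 4). Hist1h1c, Hist3h2a and Hist2h2aa1 sit highest in the heart libraries, Hist1h2ao and Hist1h2ap lowest there on average, and Hist1h4i overlaps across the groups.

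Only genes with at least 1 RPKM in at least 4 libraries were tested (limma on log2(RPKM + 0.5), Benjamini-Hochberg over all 11234 genes tested, called at an adjusted p under 0.05). Of the members, 21 passed: 3 H1, 8 H2A, 4 H2B, 1 H3 and 5 H4 genes. Hist1h1d, Hist2h4 and Hist3h2ba passed through the heart libraries alone, and Hist1h1e and Hist1h4m passed with 4 heart libraries and 1 pericardial library, so these 5 could enter the test only because they were high in heart. The other 48 members stayed below the filter, with a combined 9.98 ± 1.61 RPKM in pericardial, 8.42 ± 1.41 in pleural, 7.39 ± 1.24 in peritoneal, and 25.5 ± 11.3 RPKM in heart macrophages (SD, n = 4 each). Folds are on the log2(RPKM + 0.5) scale, which understates the change of genes near 0.5 RPKM.

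Against heart macrophages, 9 of the 21 tested members were lower in all 3 cavity populations, 2 were higher in all 3, 6 were called in none, and 4 were called in 1 or 2 of the comparisons. The 9 include all 5 members that could enter the test only because they were high in heart. The rest of the 9 are Hist1h1c, Hist1h2bg, Hist2h2aa1 and Hist3h2a. The share of all genes with each of these patterns is not given here. The 3 comparisons share the heart libraries, so their likeness is no repeat of the result. In pericardial against heart macrophages 3 members were higher and 9 lower, with a median fold of -0.39, while over all genes tested 53.8% were higher and 14.7% lower, with a median of 0.45. In pleural against heart macrophages 3 were higher and 11 lower, with a median of -0.53, while 47.8% of all genes were higher and 13.9% lower, with a median of 0.36. In peritoneal against heart macrophages 2 were higher and 12 lower, with a median of -0.76, while 48.8% of all genes were higher and 14.1% lower, with a median of 0.38. Leaving out the 5 members that passed through heart, 16 remained, of which 3 were higher and 4 lower in pericardial, 3 and 6 in pleural, and 2 and 7 in peritoneal macrophages. The median folds of these 16 were -0.08, -0.43 and -0.09, closer to 0 than those of the 21. The median of all genes shifts to 0.00, -0.01 and 0.00 when libraries are scaled by median ratios. With the 5 that passed through heart included, 21 members were tested under that scaling. Of these 21, 1 was higher and 12 lower in pericardial, 2 and 13 in pleural, and 1 and 13 in peritoneal macrophages. Over all genes 31.6%, 30.6% and 31.2% were then higher and 31.5%, 29.5% and 29.2% lower in the same 3 comparisons. Counts without those 5 are not given for that scaling.

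**Figure D2:**
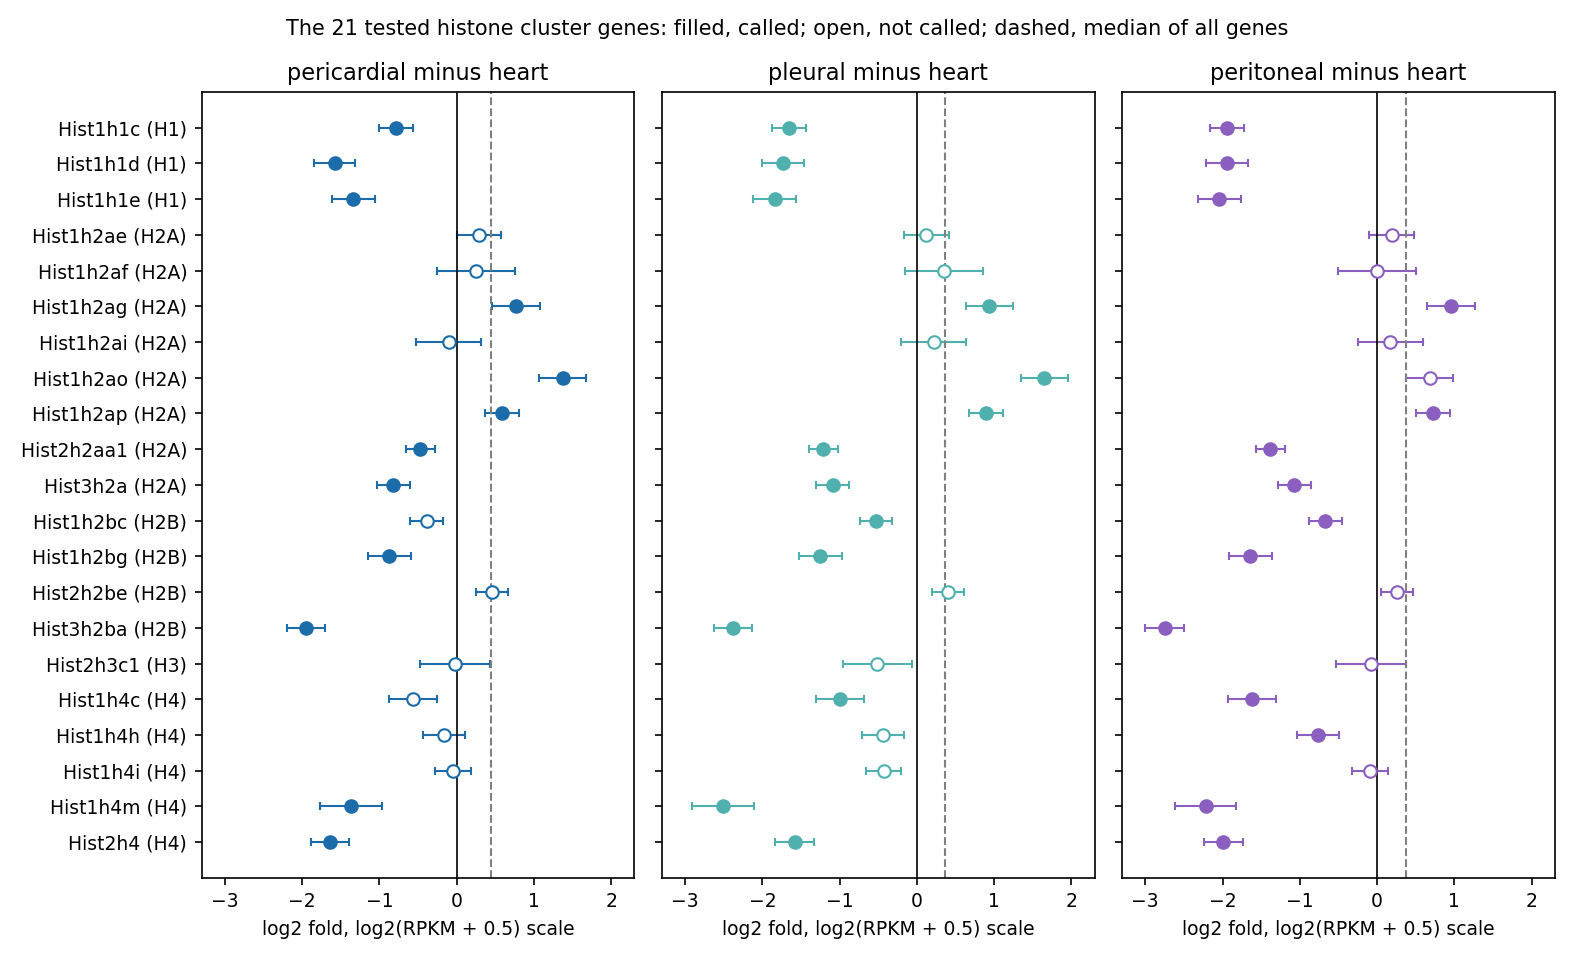
Log2 folds of the 21 tested members in pericardial, pleural and peritoneal over heart macrophages (horizontal axes), with SE whiskers. Filled points were called, open points were not, the solid line is 0 and the dashed line is the median of all genes (0.45, 0.36 and 0.38). H1 genes lie left of 0 in all panels, and Hist1h2ag, Hist1h2ao and Hist1h2ap lie right of it, of which Hist1h2ap falls to -0.02 in pericardial macrophages when libraries are scaled to an equal RPKM total.

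The 3 linker histone genes tested were lower in every cavity population, but Hist1h1d and Hist1h1e could be tested only because they were high in heart. Hist1h1c had 12.5, 12.8, 14.6 and 13.0 RPKM in pericardial libraries 2 to 5, 8.32, 5.53, 8.98 and 5.88 in pleural, 7.79, 5.07, 5.07 and 5.07 in peritoneal, and 19.6, 17.2, 21.2 and 39.6 RPKM in heart libraries. Every cavity library lay below every heart library, and the pericardial libraries lay above all pleural and peritoneal ones. The folds against heart were -0.78 ± 0.22 in pericardial, -1.65 ± 0.22 in pleural and -1.94 ± 0.22 in peritoneal macrophages (SE), and without heart library 5 they were -0.53, -1.39 and -1.68. Hist1h1c shares 8.54% of its 50-base stretches with other genes.

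Hist1h1d and Hist1h1e, which code for other linker histone subtypes in the same cluster, stayed below 1 RPKM in all cavity libraries but one, pericardial library 2 with 1.02 RPKM of Hist1h1e. Hist1h1d had 0.133, 0.41, 0.266 and 0.441 RPKM in pericardial, 0.0497, 0.252, 0.616 and 0.0956 in pleural, 0.109, 0.0927, 0.219 and 0.0876 in peritoneal, and 1.66, 1.02, 1.75 and 3.98 RPKM in heart libraries. Its folds were -1.58, -1.73 and -1.94 (SE 0.27 each), in a direction that its passing the filter had fixed. Hist1h1e averaged 0.667 ± 0.261 RPKM in pericardial, 0.32 ± 0.171 in pleural, 0.21 ± 0.0869 in peritoneal, and 2.73 ± 1.86 RPKM in heart macrophages (SD, n = 4 each), with folds of -1.34, -1.84 and -2.04. Neither gene overlapped between heart and any cavity. For Hist1h1d that was fixed by its passing the filter through heart alone, and for Hist1h1e it was nearly so. The other 3 H1 genes, Hist1h1a, Hist1h1b and Hist1h1t, never reached 1 RPKM, and the testis gene Hist1h1t peaked at 0.117 RPKM. Summed, the 6 H1 genes came to 14.4 ± 0.855 RPKM in pericardial, 7.88 ± 1.77 in pleural, 6.30 ± 1.53 in peritoneal, and 29.8 ± 13.4 RPKM in heart macrophages.

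H2A genes split in direction. The sum of all 19 was 72.5 ± 6.70 RPKM in pericardial, 73.0 ± 5.96 in pleural, 59.0 ± 14.1 in peritoneal, and 74.3 ± 17.7 RPKM in heart macrophages, and the groups overlapped. Behind these like sums, Hist1h2ao was higher in pericardial and pleural macrophages, and Hist1h2ap in all 3 cavity populations before rescaling but in none under median-ratio or equal-total scaling. The other 17 summed to 34.0 ± 5.79, 25.8 ± 1.48, 25.2 ± 4.96 and 53.5 ± 13.2 RPKM in pericardial, pleural, peritoneal and heart macrophages (SD, n = 4 each).

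Hist3h2a, the H2A gene of the small cluster on chromosome 11, had 19.6, 17.1, 13.3 and 12.4 RPKM in pericardial, 12.4, 14.2, 12.7 and 11.3 in pleural, 14.3, 17.2, 7.77 and 13.8 in peritoneal, and 21.9, 27.2, 25.4 and 37.4 RPKM in heart libraries. No cavity library reached the lowest heart library. Its folds were -0.82, -1.09 and -1.07 (SE 0.21 each; adjusted p = 0.00246, 0.00023 and 0.00025, limma). In M21 31.5% of its 50-base stretches are shared with Trim17, and the files do not say whether strand was used in counting.

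Hist2h2aa1, in the Hist2 cluster on chromosome 3, had 10.9 ± 0.591 RPKM in pericardial, 6.37 ± 1.05 in pleural, 5.63 ± 1.27 in peritoneal, and 15.7 ± 5.03 RPKM in heart macrophages (SD, n = 4 each). Its folds were -0.47, -1.21 and -1.38 (SE 0.19 each; adjusted p = 0.0353, 2.13e-05 and 3.83e-06, limma). All of its 50-base stretches also occur in other genes, and with its twin Hist2h2aa2 added the level was 11.8 ± 0.790, 6.96 ± 1.46, 6.15 ± 1.16 and 16.2 ± 5.19 RPKM in pericardial, pleural, peritoneal and heart macrophages. The pericardial call was not kept without heart library 5 (-0.28, adjusted p = 0.157), heart library 4 or any 1 of the pericardial libraries, nor with replicate number as a block (adjusted p = 0.0502).

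Hist1h2ao and Hist1h2ap code for H2A in the Hist1 cluster and share 93.5% and 93.1% of their 50-base stretches, mainly with each other, so the way reads were split between them cannot be checked here and their sum is the safer value. Together they had 37.7, 40.7, 39.8 and 36 RPKM in pericardial, 56.3, 47.1, 42.1 and 43.3 in pleural, 47.6, 33.9, 24.2 and 29.5 in peritoneal, and 23.2, 20.6, 11 and 28.3 RPKM in heart libraries. Before rescaling, all pericardial and pleural libraries lay above the heart libraries, while peritoneal library 4 lay below heart library 5. The separation of the sum depends on the scaling: the RPKM total was 426864 in pericardial library 2 and 227397 in heart library 2. Relative to these totals, heart library 2 lies above pericardial library 2. Taken singly, Hist1h2ao had folds of 1.37 ± 0.30, 1.65 ± 0.30 and 0.68 ± 0.30 (SE; adjusted p = 0.000506, 9.51e-05 and 0.0502, limma), so that the peritoneal difference missed the threshold; it was called without peritoneal library 4 or 5 or heart library 2 or 5 (0.77 to 0.85). Hist1h2ap had folds of 0.59, 0.90 and 0.73 (SE 0.22 each; adjusted p = 0.0224, 0.00168 and 0.00761, limma). The Hist1h2ap difference was not called under median-ratio or equal-total scaling in any of the 3 comparisons, and in pericardial macrophages it came to -0.02 at an equal RPKM total. Its pericardial call was also lost without heart library 4 (0.39, adjusted p = 0.103) and without pericardial library 3 or 5.

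Hist1h2ag, another Hist1 H2A gene, was the third higher member, at 1.24 ± 0.996 RPKM in pericardial, 1.24 ± 0.309 in pleural, 1.29 ± 0.503 in peritoneal, and 0.396 ± 0.0721 RPKM in heart macrophages (SD, n = 4 each). Its folds were 0.77, 0.94 and 0.96 (SE 0.31 each; adjusted p = 0.0351, 0.013 and 0.0115, limma). Pericardial library 2 stood at 0.273 RPKM, below the heart libraries, and without pericardial library 3 the pericardial fold was 0.45 (adjusted p = 0.169). The pericardial call was lost without pericardial library 4 or heart library 2, 3 or 4 as well. Under median-ratio and equal-total scaling the pericardial fold was 0.50 and 0.42 and not called. It shares 78.9% of its stretches, mostly with Hist1h2ao and Hist1h2ap. The remaining tested H2A genes, Hist1h2ae, Hist1h2af and Hist1h2ai, were not called, with folds between -0.10 and 0.35. Hist1h2ai was listed at 2.9e-10 RPKM in heart library 5 and at 1.73 in heart library 4.

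**Figure D3:**
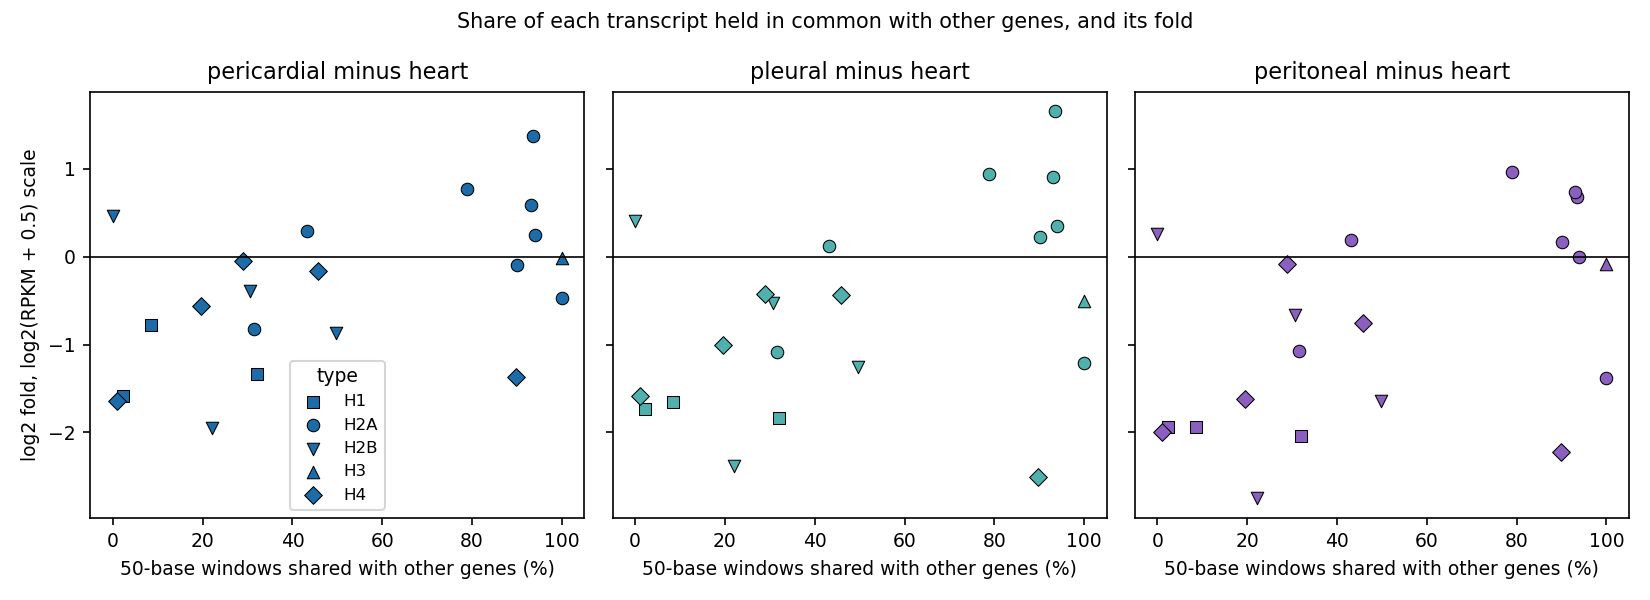
Share of each tested member's 50-base stretches found in transcripts of other genes (horizontal axes, %) against its log2 fold in pericardial, pleural and peritoneal over heart macrophages (vertical axes), with 1 marker shape for each histone type. The higher-in-cavity members Hist1h2ag, Hist1h2ao and Hist1h2ap lie between 78.9% and 93.5%, where Hist1h2ap is at -0.02 in pericardial macrophages under equal-total scaling, while lower members lie at both ends, from Hist2h4 at 1.01% to Hist2h2aa1 at 100%. Hist2h4 entered the test through heart alone.

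H2B genes were lower or not called. Summed over 19, H2B came to 26.4 ± 5.72 RPKM in pericardial, 22.7 ± 2.87 in pleural, 21.2 ± 4.64 in peritoneal, and 40.0 ± 9.10 RPKM in heart macrophages, and the heart libraries, from 32.5 RPKM upward, lay above every cavity library. Hist1h2bc, the most abundant H2B gene, had 21.1, 21.2, 18.5 and 11 RPKM in pericardial, 13.5, 18.2, 17.8 and 14 in pleural, 16.5, 18.1, 10 and 13.7 in peritoneal, and 18.5, 21.9, 26.0 and 26.4 RPKM in heart libraries. Its folds were -0.39, -0.53 and -0.67 (SE 0.21 each; adjusted p = 0.105, 0.0354 and 0.00975, limma), and the pericardial libraries overlapped those of heart. The pleural call was lost without pleural library 2 or 5 or heart library 3, 4 or 5, with adjusted p up to 0.0967.

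Hist3h2ba, the H2B gene beside Hist3h2a, had the lowest folds of the members tested in pericardial and peritoneal macrophages, but it entered the test through heart alone, which fixed their direction. It had 0.951, 0.891, 0.678 and 0.849 RPKM in pericardial, 0.183, 0.897, 0.762 and 0.309 in pleural, 0.085, 0.333, 0.137 and 0.602 in peritoneal, and 3.42, 4.64, 3.75 and 7.80 RPKM in heart libraries. Its folds were -1.95, -2.38 and -2.75 (SE 0.25 each). Hist1h2bg had folds of -0.87, -1.25 and -1.64 from means of 1.13, 0.787, 0.457 and 2.63 RPKM in pericardial, pleural, peritoneal and heart macrophages. Its pericardial and pleural libraries overlapped those of heart, and the pericardial call was lost without heart library 5 (-0.63, adjusted p = 0.0513, or 0.0482 with the tested genes kept, limma). Hist2h2be, which shares no 50-base stretch with any other gene, moved the other way without being called: 4.66 ± 0.638, 4.46 ± 0.579, 4.07 ± 1.05 and 3.40 ± 1.36 RPKM, with folds of 0.46, 0.40 and 0.26 (adjusted p = 0.058, 0.102 and 0.284, limma). Without heart library 5 the Hist2h2be folds were 0.67, 0.61 and 0.47, and all 3 were called; without pericardial library 5 the pericardial one was called too, at 0.55.

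H3 genes were barely detected. The 12 genes summed to 3.78 ± 1.05 RPKM in pericardial, 3.25 ± 0.96 in pleural, 2.3 ± 0.62 in peritoneal, and 8.02 ± 3.76 RPKM in heart macrophages (SD, n = 4 each). Hist2h3c1 alone was tested and not called, with folds of -0.02, -0.51 and -0.08. Its libraries spread from 0.282 to 1.19 RPKM in pericardial, 0.198 to 1.20 in pleural, 0.174 to 1.26 in peritoneal and 0.0895 to 2.12 in heart macrophages, and every 50-base stretch of it is also found elsewhere.

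H4 genes differed from each other. Hist1h4i, the only abundant one, had 9.60, 10.1, 8.01 and 7.27 RPKM in pericardial, 7.82, 6.39, 7.41 and 4.99 in pleural, 12.9, 8.85, 5.57 and 8.01 in peritoneal, and 8.12, 7.56, 7.46 and 14.4 RPKM in heart libraries. The groups overlapped, and the folds of -0.05, -0.43 and -0.09 were not called (adjusted p = 0.842, 0.106 and 0.753, limma). Hist2h4, on chromosome 3 and with 1.01% of its stretches shared, stood at 0.256 ± 0.220, 0.288 ± 0.269, 0.079 ± 0.115 and 1.82 ± 0.539 RPKM in pericardial, pleural, peritoneal and heart macrophages, with folds of -1.64, -1.58 and -1.99 (SE 0.25 each). It was listed at 0 in pericardial library 3 and in peritoneal libraries 3 and 5. Hist2h4 entered the test through heart alone, which fixed the direction of its folds.

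Hist1h4m had 0.724, 0.92, 1.25 and 0.61 RPKM in pericardial, 0.00468, 0.607, 0.00363 and 0.00417 in pleural, 0.563, 0.000888, 0.69 and 0.00101 in peritoneal, and 5.19, 1.56, 1.32 and 6.45 RPKM in heart libraries. All its cavity values lay below those of heart, with folds of -1.37, -2.51 and -2.22 (SE 0.40 each). Hist1h4m could be tested only because it was high in heart, so its passing the filter largely set this direction. Of its stretches 89.8% are shared, mostly with Hist1h4n. Hist1h4c fell by 1 and 1.62 on the log2 scale in pleural and peritoneal macrophages and was not called in pericardial (-0.56, adjusted p = 0.112, limma), though it was without heart library 3 (-0.89, adjusted p = 0.0089). Hist1h4h was called only in peritoneal macrophages, at 0.539 ± 0.178 RPKM against 1.27 ± 0.344 in heart (-0.76, adjusted p = 0.0187, limma; 0.0523 without peritoneal library 3 and 0.0549 without heart library 4). H4 as a whole summed to 14.2 ± 1.32, 11 ± 2.03, 12 ± 4.35 and 23.9 ± 8.50 RPKM in pericardial, pleural, peritoneal and heart macrophages.

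**Figure D4:**
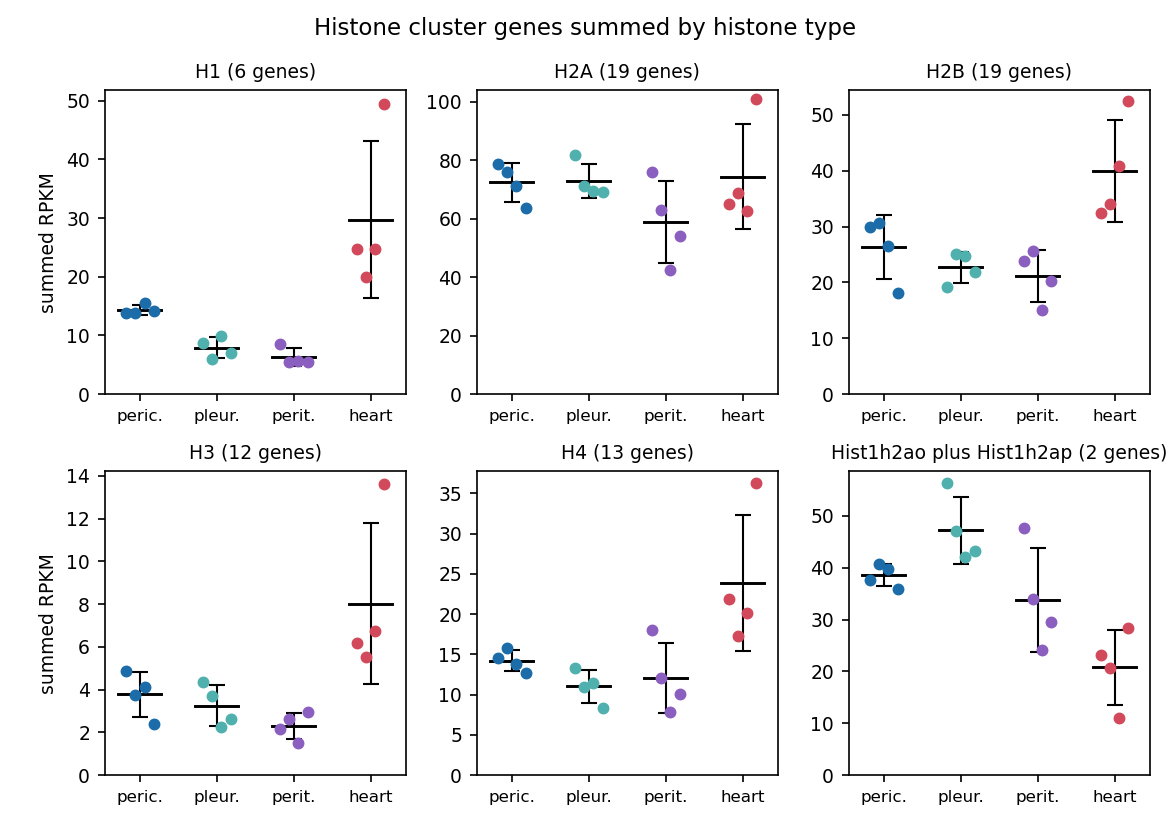
Summed RPKM (vertical axes, from 0) of the members of each histone type and of the near-identical pair Hist1h2ao and Hist1h2ap, in pericardial, pleural, peritoneal and heart libraries; points are libraries, horizontal lines the mean, whiskers the SD (n = 4). H1, H2B and H3 sums lie above all cavity libraries in heart, H2A sums overlap, and the mean of the pair is highest in pleural macrophages, with peritoneal library 2 at 47.6 RPKM among them.

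Among the 48 members below the filter, those called were lower in the cavities. In a fit with no filter on low values, 8 of them were lower in pericardial macrophages, 13 in pleural and 11 in peritoneal, and none was higher, while 14.4%, 12.7% and 12.8% of the 23663 genes in that fit were lower and 25.6%, 22.6% and 23.1% higher. The pericardial count is near the share of all genes. Without the filter 6053, 5339 and 5471 genes were higher, against 6048, 5366 and 5485 with it. Genes below the filter thus added hardly any higher calls, and the lack of higher members among the 48 says little about them. Hist2h2ac had folds of -1.29, -1.49 and -1.65 (SE 0.21 each) and Hist4h4, the H4 gene on chromosome 6, of -1.27, -1.27 and -1.48 (SE 0.27 each). Hist2h2ab, Hist2h2bb, Hist3h2bb-ps and Hist1h3i were lower in all 3 comparisons too. These 6 genes were named after their values were seen. No untested member reached 1 RPKM in more than 3 libraries. Tested members had longer M21 transcripts than the others, with a median of 704 bases against 522, and a poly(A) signal in the last 50 bases in 9 of 21 against 7 of 48. Hist1h2bq and Hist1h2br were listed with the same value in every library.

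Few members passed the test between cavity populations. Between pericardial and peritoneal macrophages 2 members, Hist1h1c and Hist2h2aa1, were higher and none lower, while 0.525% of all genes were higher and 0.427% lower. The median fold of the 21 members was 0.36, against 0.05 over all genes, and 9 members, each with the higher mean in pericardial macrophages, were under an unadjusted p of 0.05, against 999 of 11234 genes. Of the 7 of these that were not called, Hist1h4c (fold 1.06, adjusted p = 0.162, limma), Hist3h2ba (0.81, adjusted p = 0.227) and Hist1h1e (0.70, adjusted p = 0.414) did not overlap between the groups. The 7 were picked by a low unadjusted p, which makes a lack of overlap likely. The share of all genes without overlap is not given here. Hist1h1c averaged 13.2 ± 0.933 RPKM in pericardial and 5.75 ± 1.36 RPKM in peritoneal macrophages (SD, n = 4 each), a fold of 1.15 ± 0.22 (SE). Hist2h2aa1 had a fold of 0.92 ± 0.19 (SE; adjusted p = 0.0164, limma), which was lost without pericardial library 2, 3 or 4 or peritoneal library 4 or 5 (adjusted p up to 0.0692). With no filter on low values neither was called. Erythroid markers moved with this comparison, at a summed 82.1 to 1060 RPKM in pericardial and 0.984 to 4.72 RPKM in peritoneal libraries. Pericardial libraries 2 to 5 had 1060, 620, 183 and 82.1 RPKM of erythroid markers and 12.5, 12.8, 14.6 and 13.0 RPKM of Hist1h1c. Mast cell markers moved the other way, at a summed 0.2 to 0.428 RPKM in pericardial and 2.1 to 8.06 RPKM in peritoneal libraries. The part of red cell or mast cell RNA in the difference was not tested.

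Between pleural and peritoneal macrophages no member was called by limma, against 0.588% of all genes. Of the 21 members 1, Hist1h2ao, was under an unadjusted p of 0.05, against 1096 of 11234 genes. Hist1h2ao had 23.1 ± 5.72 RPKM in pleural and 11.8 ± 3.87 RPKM in peritoneal macrophages (fold 0.96 ± 0.30, adjusted p = 0.206, limma). Between pericardial and pleural macrophages no member was called by limma, against 0.0178% of all genes. Of the 21 members 3, Hist1h1c, Hist2h2aa1 and Hist1h4m, were under an unadjusted p of 0.05, against 195 of 11234 genes. Pericardial and pleural libraries of equal number deviated together. With number as a block and these 2 groups alone in the fit, an alternative added after seeing the data, the same 3 passed the threshold as higher in pericardial macrophages, while 0.125% of all genes did. The folds there were 0.74 ± 0.12 for Hist2h2aa1 and 1.14 ± 0.18 for Hist1h4m (SE; adjusted p = 0.0289 and 0.0324, limma), and 0.86 ± 0.12 for Hist1h1c, whose selection on these values leaves its passing a description. With the block in the fit of all 16 libraries none was called.

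Most S phase and DNA replication genes tested were higher in each cavity population than in heart macrophages, before rescaling. Of the S phase and DNA replication list, 33 of 34 genes were tested, and 30, 27 and 30 were higher in pericardial, pleural and peritoneal than in heart macrophages, with none lower and medians of 0.80, 0.69 and 0.99. Over all genes 53.8%, 47.8% and 48.8% were higher. Rrm2, a subunit of the enzyme that makes deoxyribonucleotides, averaged 10.8 ± 2.07, 9.82 ± 0.895, 13.7 ± 3.33 and 3.68 ± 1.03 RPKM in pericardial, pleural, peritoneal and heart macrophages (SD, n = 4 each). Its folds were 1.46, 1.34 and 1.77 (SE 0.19 each). Mki67, the marker of cycling cells, had folds of 0.91, 0.87 and 1.64 (SE 0.19 each), and Cdc45, part of the replicative helicase, of 1.27, 1.18 and 1.5. The median stayed above 0 under the other scalings but the count fell. With median-ratio scaling 17, 19 and 24 were higher and 1, 2 and 2 lower, while 31.6%, 30.6% and 31.2% of all genes were higher. At an equal RPKM total 10, 9 and 24 were higher and 2, 2 and 1 lower, while 2694, 2709 and 3470 of all 11234 genes were higher. The pericardial and pleural counts at an equal total are thus near the share of all genes. At an equal total the pericardial and pleural Mki67 folds were 0.32 and 0.38 and not called.

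Of the replication-independent variants, 10 of 11 were tested, and 6 were higher and 1 lower in pericardial and in pleural macrophages, and 5 higher and 1 lower in peritoneal. Over all genes 53.8%, 47.8% and 48.8% were higher and 14.7%, 13.9% and 14.1% lower, so these counts are near the share of all genes. H2afz, the gene of variant H2A.Z, averaged 380 ± 70.7, 340 ± 44.6, 293 ± 63.2 and 144 ± 35.3 RPKM in pericardial, pleural, peritoneal and heart macrophages, with folds of 1.41, 1.26 and 1.03 (SE 0.21 each). H2afj had folds of 1.4, 1.47 and 1.31, and H2afy2, a macroH2A gene, of 1.58, 1.43 and 1.49. H3f3b, which codes for variant H3.3, was the lower one, at 179 ± 22.9, 153 ± 15.3, 155 ± 29.8 and 567 ± 162 RPKM, with folds of -1.63, -1.85 and -1.85 (SE 0.20 each). H3f3a codes for the same protein and had folds of 0.81, 0.58 and 0.42, of which the peritoneal one was not called (adjusted p = 0.0795, limma). Under median-ratio scaling the H3f3a folds were 0.31, 0.16 and 0.00, and only the pericardial one was called. With that scaling 4 variants were higher in each comparison, and 3, 2 and 2 were lower. Over all genes 31.6%, 30.6% and 31.2% were then higher and 31.5%, 29.5% and 29.2% lower. H1f0, the linker histone of resting cells, was not called (-0.07, -0.15 and 0.00), but was lower by 0.39 to 0.69 under median-ratio, quantile and equal-total scaling.

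Of the genes for histone mRNA processing and transcription, 16 of 17 were tested, and 12, 10 and 12 were higher and none lower, with medians of 0.46, 0.41 and 0.52, close to those of all genes. Lsm10, a part of the U7 particle that cuts histone pre-mRNA, had folds of 1.17, 1.04 and 0.88 (SE 0.20 each), and the cap-binding genes Ncbp1 and Ncbp2 were higher in all 3. Slbp was at 23.3 ± 3.14, 21.5 ± 4.26, 22 ± 5.97 and 24.4 ± 4.68 RPKM in pericardial, pleural, peritoneal and heart macrophages, was not called (-0.06, -0.18 and -0.17), and was lower by 0.55 to 0.69 under the other scalings. Of 21 histone chaperones 12, 10 and 14 were higher and none lower, with medians of 0.59, 0.43 and 0.58, while 53.8%, 47.8% and 48.8% of all genes were higher, so the pericardial and pleural counts are near the share of all genes. Asf1b, which hands H3 and H4 to the assembly machinery, had folds of 1.15, 0.93 and 1.15 (SE 0.20 each), and Chaf1a, the large subunit of chromatin assembly factor 1, of 1.04, 1.03 and 1.33 (SE 0.18 each). With median-ratio scaling the medians fell to between 0.02 and 0.17 for both lists, and 4, 3 and 4 processing genes were higher and 3, 4 and 1 lower, while 5, 3 and 9 chaperones were higher and 2, 2 and 2 lower. Under that scaling 31.6%, 30.6% and 31.2% of all genes were higher.

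**Figure D5:**
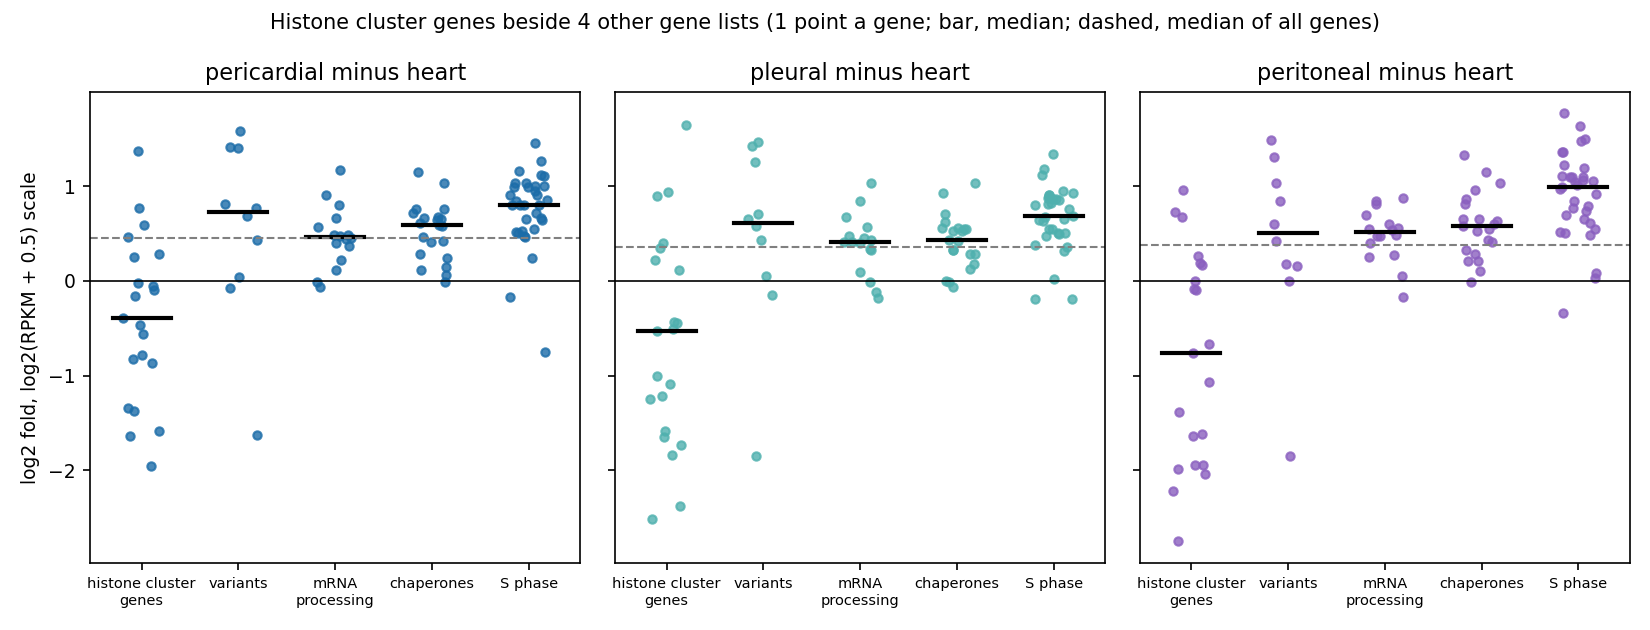
Log2 folds (vertical axes) of the tested histone cluster genes beside replication-independent variants, histone mRNA processing genes, chaperones and S phase genes, in pericardial, pleural and peritoneal over heart macrophages; 1 point is 1 gene, thick lines are medians and the dashed line is the median of all genes. The cluster genes have medians of -0.39, -0.53 and -0.76 and the S phase genes of 0.80, 0.69 and 0.99. Without the members that passed the filter through heart, the cluster medians are -0.08, -0.43 and -0.09. Under equal-total scaling the medians of the processing genes in pericardial and pleural and of the chaperones in pleural macrophages turn slightly negative.

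RNA of other cells moved with the comparisons against heart. Heart libraries 2 to 5, with 151, 146, 155 and 253 RPKM of cluster genes, had 591, 487, 275 and 565 RPKM of cardiomyocyte markers and 284, 60.7, 69.3 and 79.4 RPKM of fibroblast markers. Heart library 2 had the most of both marker lists, and heart library 5 the most cluster RNA. Erythroid markers, with nearly all of their RPKM from globin genes, summed to 451, 648, 341 and 980 RPKM in those libraries, so heart library 5 was the highest for these as well. Pericardial library 2 was the highest of its group in both too, at 1060 RPKM of erythroid markers and 142 RPKM of cluster genes. Pleural and peritoneal libraries had 96.4 to 216 and 0.984 to 4.72 RPKM of erythroid markers, and there the highest libraries differed. Pleural library 5 had the most erythroid RPKM, 216, and the least of cluster genes, 109. Peritoneal library 5 had the most erythroid RPKM, 4.72, and 93.2 RPKM of cluster genes, against 129 in peritoneal library 2. B cell markers went the other way, at 14.7 to 70.1 RPKM in cavity libraries and 7.38 to 12.1 RPKM in heart libraries. The part of such RNA in the differences was not tested.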

How the data were processed

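Sorted macrophages were profiled by RNA sequencing from total RNA with the NEBNext Ultra II kit, per the labels' protocols. How poly(A) RNA was selected, if at all, and how multiply mapping reads were counted, is information not given in the sources used here. From the file headers and the submitters' processing notes, bcl2fastq 2.17.1 and TopHat2 2.1.1 with mm10 were used, and the authors computed RPKM in Partek 7.18.0723. The deposited alignment counts per library (40886702 to 70166356) describe depth. The authors' deposited log2 group means per transcript were read but are not printed.

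Members and gene lists were chosen with earlier results of these data known. Genes with at least 1 RPKM in at least 4 of 16 libraries (11234 of 24981) were fitted with limma 3.58.1 in R 4.3.3 on log2(RPKM + 0.5), with 1 mean for each of the 4 groups, trended empirical Bayes, and Benjamini-Hochberg adjustment over all genes tested in each of 6 comparisons. The fit was tested on simulated data. Named were Hist1h1c, the 15 tested members with the highest mean RPKM, the 2 highest of each type, and the 6 largest called rises and falls in each comparison; of the other lists, up to 4 called genes with the largest change and 7 preset genes. Other pseudocounts, filters and scalings, the 2 groups alone, no trend, a replicate block and each library left out were tried. Pericardial and pleural libraries of equal number deviated together (correlation 0.19, 0.30, 0.63 and 0.43 of their deviations from group means), as a pairing seen in the data; the other comparisons did not show this in every pair. Stretches of 50 bases shared between genes, stem-loops and poly(A) signals were counted in GENCODE M21 transcripts, 1 transcript a gene, and a read can be longer or shorter than that. With RPKM alone per gene, no counting intervals are given.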

Additional observations from a re-analysis of the deposited data

Results flagged for a closer look

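Among 108 groups of 4 libraries (21 tested members and 6 sums in 4 groups), 8 had 1 library standing apart from the other 3 by Dixon's gap criterion, where chance gives about 1 in 20. In peritoneal macrophages, library 2 had 7.79 RPKM of Hist1h1c while the other 3 were at 5.07 to 3 digits, and it raised the summed H1 genes there to 8.59 RPKM, against 5.48 to 5.59 in the others. In heart macrophages, library 5 had 14.4 RPKM of Hist1h4i, against 7.46 to 8.12 in the others, and 253 RPKM over all members, against 146 to 155. In pleural macrophages, library 3 had 0.607 RPKM of Hist1h4m, against 0.00363 to 0.00468, and 1.20 RPKM of Hist2h3c1, against 0.198 to 0.24. Both genes share most of their sequence with others. Pleural library 5 had 0.169 RPKM of Hist1h4h, against 1.03 to 1.26, and pleural library 2 had 81.8 RPKM of summed H2A genes, against 69.2 to 71.1.

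The fold against heart differed between pericardial and peritoneal macrophages for Hist1h1c, by 1.15 on the log2 scale, and for Hist2h2aa1, by 0.92. The heart libraries cancel in this difference, which is the pericardial minus peritoneal comparison itself.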

How the results depend on the processing

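With a filter of 2 RPKM in 8 libraries, 8 members were tested, and the calls against heart numbered 5 in pericardial, 6 in pleural and 6 in peritoneal macrophages. With no filter 69 were tested, and the calls numbered 17 in pericardial, 26 in pleural and 24 in peritoneal macrophages. Of the 23663 genes in that fit 25.6%, 22.6% and 23.1% were higher and 14.4%, 12.7% and 12.8% lower. With both directions counted, the pericardial count is below the share of all genes and the other counts are near it. The share of all genes under the 2 RPKM filter, without single libraries or with the block in all 16 libraries is not given. Between pericardial and peritoneal macrophages 0 members were called with no filter, against 2 with the main filter. The smaller and larger number of genes tested is part of these settings. Leaving out 1 library gave 6 to 11 calls in pericardial, 10 to 14 in pleural and 10 to 15 in peritoneal against heart macrophages, and 1 to 2 between pericardial and peritoneal; 6 in pericardial came without heart library 4, where 18 members passed the filter. With the tested genes kept, an alternative chosen after seeing the data, the ranges were 9 to 12, 13 to 14, 13 to 16 and 1 to 2, and 36 of the 42 called member and comparison pairs were called without each library in turn. With replicate number as a block the calls were 11, 14 and 15 against heart, 2 between pericardial and peritoneal and 0 in the other 2; the block in pericardial and pleural libraries alone called 3, against 0. Among those 42 pairs the only reversed sign was Hist1h2ap in pericardial macrophages at an equal RPKM total, -0.02 (adjusted p = 0.935, limma). Pseudocounts of 0.1 and 1 and a fit without a trend kept all 42 pairs. Where not named, the cause of a changed call was not tested. Members under about 1 RPKM rest on few reads, and near-identical members on the splitting of reads.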
